A study of Mus musculus with 6 samples.

Results

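The cells described here are the GL261-GSCs cells with the highest share of transcripts from 6 genes of the amino acid stress response. GL261-GSCs are cultures derived from GL261, an established mouse glioma line. The score of a cell was the sum of its unique molecular identifiers (UMIs, each counting 1 captured transcript) of Ddit3, Trib3, Chac1, Asns, Atf5 and Sesn2, divided by all its UMIs. A barcode entered if it held 5000 or more UMIs, 500 or more genes and less than 10% of mitochondrial UMIs. The top 10% of each GL261-GSCs library are called high cells, and the bottom 50% of the same library, with which they were compared, low cells. There were 403, 536, 611 and 281 high cells in replicates 1 to 4, 1831 of 18333 GL261-GSCs cells, against 9166 low cells. The whole series held 27208 such cells.

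The series comprised 4 libraries of GL261-GSCs, grown in a defined stem cell medium, and 2 of GL261, grown in a differentiation medium with serum. All cultures were dissociated with Accutase and treated with a detergent lysis buffer before droplet capture and 5′ library construction (10x Genomics), and whether whole cells or nuclei went into the droplets is not stated. The labels name no drug, genetic change or starvation for either group. The labels do not say that replicates came from separate cultures, so p-values measure the spread between these libraries, which may be technical.

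When amino acids run short, when unfolded protein builds up in the endoplasmic reticulum (ER), or under heme shortage or double-stranded RNA, kinases phosphorylate the translation factor eIF2. General protein synthesis then slows, while the messenger RNA of the transcription factor ATF4 is translated more. ATF4 pairs with C/EBP proteins and raises genes that make, import and charge amino acids, among them Asns (asparagine synthetase), and regulators such as Ddit3 (CHOP, a transcription factor linked to cell death), Trib3 (a pseudokinase that binds ATF4 and CHOP), Atf5 (a related transcription factor), Chac1 (a glutathione-degrading enzyme) and Sesn2 (a leucine sensor that restrains mTORC1). This program is called the integrated stress response, and its ER branch runs beside the ATF6 and XBP1 arms, which raise chaperones.

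The GL261-GSCs libraries held 80899005 to 121309232 UMIs and the GL261 libraries 102141454 and 110077221. The median depth of high cells was 14825, 11058.5, 10255 and 7985 UMIs in replicates 1 to 4, and of low cells 15545, 12382, 11696 and 9233 UMIs. Pairs of GL261-GSCs libraries shared 15 to 46 passing barcodes, and in none of these pairs was a shared barcode a high cell in both. Between GL261-GSCs and GL261 libraries 0 to 3 barcodes per pair were high cells in both. Barcodes with 100 to 1000 UMIs were taken as a measure of free RNA, though what they hold was not tested. They gave the score genes 205 to 237 CPM (counts per 1e6 UMIs) in GL261-GSCs. All passing cells of replicates 1 to 4 stood at 193, 238, 191 and 202 CPM, close to that level, and the part of free RNA in the score was not tested. By the way they were chosen, low cells had less, 71.7, 83.6, 66.3 and 49.7 CPM, and high cells more, 399, 496, 385 and 428 at the least. Of marker lists of 6 other cell types, several defining genes had no UMI in high cells. Tyrobp, C1qa and C1qb of the microglial list, Cdh5, Kdr, Cldn5 and Tie1 of the endothelial list, and Cd3e, Cd3d and Ms4a1 of the lymphocyte list stood at 0 UMIs. Other members were seen in high cells. Flt1 and Pecam1 of the endothelial list had 1468 and 15 UMIs, and Cd79a of the lymphocyte list 7. Gja1, Slc1a3, Mog and Opalin of the astrocyte and oligodendrocyte list had 1577, 1561, 868 and 638. Syt1 of the neuron list had 609, and Col1a1 of the fibroblast and pericyte list 376. The 10 microglial markers together stood at 21.6 to 43.8 CPM in high cells and 7.68 to 26.1 in low cells. Nearly all of it was Cd68, a lysosomal protein that other cells make too, with 568 of the high cells' UMIs and a log2 fold change of 0.82 (adjusted p = 0.00185, edgeR), while Ptprc had 2 UMIs and Itgam 1. The part of these transcripts in the results was not tested. The other lists ranged, in high cells, from 186.8 to 249 for astrocytes and oligodendrocytes, from 55.8 to 79.8 for endothelium, from 11.8 to 27.0 for fibroblasts and pericytes, from 0.665 to 80.4 for neurons and from 0 to 0.648 for lymphocytes. In low cells they ranged from 210 to 291, 60.98 to 81.2, 11.4 to 25.3, 1.33 to 72.95 and 0.124 to 0.431.

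The 6 score genes chose the cells, so their levels are given as a description. CPM values scaled by TMM (trimmed mean of M-values) averaged 317 ± 41.4 (SD, n = 4) in high and 43.5 ± 8.90 in low cells for Asns and 109 ± 25.5 and 7.07 ± 1.07 for Ddit3. Trib3 stood at 78.5, 102, 92.0 and 141 in high and 3.19, 2.23, 3.83 and 2.75 in low cells of replicates 1 to 4. Chac1 averaged 74.5 ± 20.9 (SD, n = 4) and 1.17 ± 0.368, and Atf5 46.2 ± 8.78 and 3.66 ± 0.904. Sesn2 stood at 115, 125, 88.1 and 116 against 12.96, 13.4, 10.6 and 6.83. The markers of the label, Ddit3, Trib3 and Asns, were thus present in high cells, as the rule ensured. Asns supplied 38.0% to 46.9% of the score UMIs of high cells. A median of 4, 4, 3 and 3 of the 6 genes was seen per high cell in replicates 1 to 4. At least 4 were seen in 52.9%, 51.3%, 27.5% and 40.9% of high cells, and Asns alone in 6.45%, 5.41%, 14.6% and 6.41%.

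The choice rested on few UMIs. High cells held a median of 9, 8, 6 and 6 score UMIs in replicates 1 to 4, and low cells 1, 1, 1 and 0. The highest score outside the group, in CPM, lay at 398.6, 495.6, 384.5 and 426.3, directly under the lowest member. With 1 score UMI less, 107, 154, 277 and 87 high cells would have fallen under the lowest member's score, and with 1 more, 230, 251, 532 and 251 other cells would have passed it. As a cut on a score, the group is a range of cells. When each cell's UMIs were split at random and cells were chosen on one part, the score was 16.3 to 73.5 times higher in high than in low cells in the part used and 3.17 to 5.01 times higher in the other. Of the high cells chosen on one part, 47.1%, 47.6%, 32.7% and 44.8% were also in the top 10% of the other part, and 20.6%, 20.7%, 29.8% and 26.7% were in its bottom 50%.

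To measure each score gene without its own part in the choice, cells were chosen again by the other 5 genes. Every gene was higher in the high cells of all 4 libraries. Chac1 stood at 69.1, 77.6, 39.4 and 68.4 CPM in high cells of replicates 1 to 4 and at 3.92, 3.79, 1.93 and 1.94 in low cells. Trib3 stood at 65.6, 88.9, 73.9 and 129 against 6.16, 5.39, 8.85 and 8.22, and Ddit3 at 57.3, 105, 71.7 and 106 against 15.9, 16.3, 14.4 and 16.7. The summed values of high cells were above those of low cells in each library. Single cells did overlap: at 5000 UMIs per cell, and with cells chosen by all 6 genes, Trib3 was seen in 29.0% to 39.5% and Chac1 in 15.2% to 30.6% of high cells. The mean log2 ratio over the 4 libraries was 4.50 ± 0.441 (SD) for Chac1, 3.62 ± 0.468 for Trib3, 2.38 ± 0.395 for Ddit3, 2.13 ± 0.343 for Atf5, 1.78 ± 0.344 for Sesn2 and 1.07 ± 0.240 for Asns. The exact sign-flip permutation test (2-sided) gave p = 0.125 for each, and 0.125 after Benjamini-Hochberg adjustment over the 6 genes, the smallest p that 4 libraries allow. Asns, with the largest share of score UMIs, had the smallest ratio, at 177, 263, 177 and 215 CPM against 87.4, 120, 103 and 83.7.

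**Figure D1:**
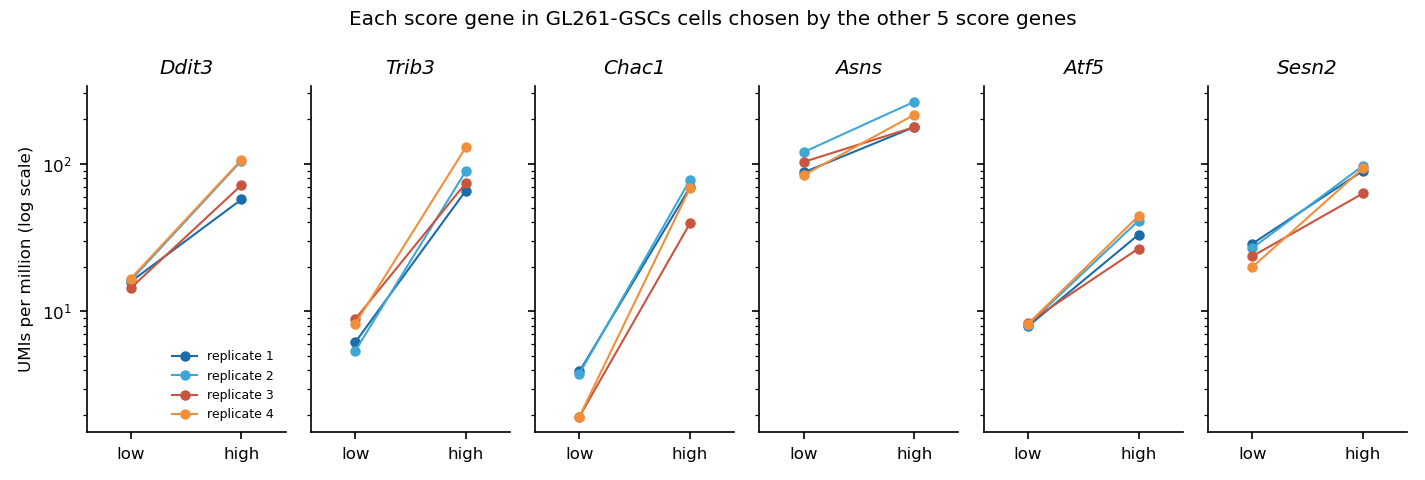
Level of each score gene (CPM, log axis) in low and high GL261-GSCs cells that were chosen by the other 5 score genes, with a line for each of the 4 replicates. All 24 lines rise, from the mean log2 ratio of 1.07 for Asns to 4.50 for Chac1.

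Over all passing cells of a library, a measure the ranking did not use, the score genes summed to 206 ± 22.0 CPM (SD, n = 4) in the GL261-GSCs libraries against 393 ± 20.2 CPM (SD, n = 2) for GL261. The libraries did not overlap, with the smallest p the 15 splits allow (exact permutation p = 0.133, 2-sided, 0.187 adjusted over 7 measures). Atf5 was 5.29-fold, Chac1 2.92-fold, Asns 1.91-fold and Trib3 1.68-fold higher in GL261, while Ddit3 and Sesn2 overlapped between the groups.

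Across the other genes, 13158 were tested on UMIs summed over the high and over the low cells of each library, and 1959 differed (14.9%) by edgeR's quasi-likelihood test with the library as a block, at a Benjamini-Hochberg adjusted p below 0.05. High cells were higher for 941 genes (7.15%) and lower for 1018 (7.74%), and these shares are the background for the counts of this fit below. Other fits have their own shares. When cells were scored on 5000 UMIs each, 3.28% of genes were higher and 1.9% lower. Equal scores in that choice were ordered by each cell's total UMIs, so that among ties the deeper cells ranked higher. With low cells matched for depth it was 4.82% and 4.34%. With scaling by library size alone, 1476 were higher and 503 lower. Without the filter on low counts the balance went the other way, with 803 of 27845 genes higher and 1942 lower. The test without the library as a block called 10 genes, all of them higher, and 521 had an unadjusted p under 0.05. Over all genes tested the median log2 fold change was -0.004. The 10 largest rises by the rule for named genes were Gdf15, Atf3, Hmox1, Herpud1, Pck2, Aldh1l2, Rsad2, Arhgef2, Atf4 and Jdp2. The 10 largest falls were Ube2c, Spc25, Ccnf, Nusap1, Sapcd2, Reep4, Cdca2, Plk1, Tubb4a and Cdkn3.

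Of 10 genes for ATF4, its partners and related factors, 8 rose and none fell, with a list median of 0.89 on the log2 scale. Atf4 itself (chromosome 15, 80255184 to 80257541 on GRCm38) stood at 344, 384, 267 and 319 CPM in the high cells of replicates 1 to 4 and at 122, 136, 115.5 and 109 CPM in low cells. The ranges were far apart, and the log2 fold change was 1.44 (SE 0.06, adjusted p = 5.985e-12, edgeR). This is the level of its messenger RNA, and protein was not measured. Nupr1, a small stress-induced chromatin protein, stood at 83.1, 133, 51.7 and 75.5 CPM against 5.68, 6.35, 5.04 and 5.35. It was 14.97-fold higher (adjusted p = 3.42e-14, edgeR). Atf3, a repressor induced by many stresses and also on the list of immediate early genes, stood at 114, 176, 71.9 and 89.0 CPM against 27.4, 20.9, 9.35 and 9.81, a 6.70-fold rise. Jdp2, which binds the same sites as AP-1 factors, rose by 1.42, and the C/EBP partners Cebpb and Cebpg by 0.92 and 0.85. Nfe2l1 and Tsc22d3 rose by 0.43 and 0.73, while Cebpd, at 0.19, and Batf2, at 0.19, were not called.

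Upstream of ATF4 the pattern was mixed. Of 16 genes for eIF2 kinases, eIF2, its exchange factor eIF2B and its phosphatase, 4 rose and 2 fell, with a median of -0.02. The largest rise was in Ppp1r15a (GADD34), the phosphatase subunit that ATF4 signalling induces and that removes the phosphate from eIF2, with 37.7, 44.1, 56.0 and 72.0 CPM in high and 12.6, 14.9, 15.4 and 14.0 CPM in low cells. Its log2 fold change was 1.80 (adjusted p = 3.54e-10, edgeR). Among the kinases, Eif2ak3 (PERK, the ER sensor) rose by 0.53, whereas Eif2ak4 (GCN2, the amino acid sensor), Eif2ak1 and Eif2ak2 stood at -0.01, 0.02 and -0.09 and were not called. Impact, an inhibitor of GCN2 activation, rose by 0.33 and Eif2s2 by 0.23, and Eif2b1 and Eif2s1 fell by 0.27 and 0.15. Both falls were lost without replicate 1, without replicate 2, with low cells matched for depth and with the score on 5000 UMIs, where 0 of 16 were lower. These are messenger RNA levels, and phosphorylation of eIF2 was not measured.

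Of 15 tested genes for other outputs of ATF4 or CHOP, 12 rose and 1 fell, with a median of 0.91. Gdf15 (chromosome 8, 70629393 to 70632456), which encodes a secreted stress cytokine, stood at 77.6, 125.5, 63.8 and 106 CPM in high and 5.65, 7.76, 7.49 and 8.62 CPM in low cells. It was 12.4-fold higher (adjusted p = 3.42e-14, edgeR), and no high value came near the low ones. Herpud1, a membrane protein of ER-associated degradation, stood at 118, 228, 137 and 141 CPM against 38.6, 48.1, 41.2 and 44.9. Eif4ebp1, a repressor of cap-dependent translation, rose by 1.18, the autophagy receptor gene Sqstm1 by 0.92 and the BH3-only gene Bbc3 by 0.85. Ero1l, the ER oxidase, was 1.03 higher on the log2 scale. It stood at 210, 188, 464 and 1264 CPM in high cells and 129.7, 85.0, 262 and 466 in low cells, so that its ranges overlapped between libraries although every library rose. Ddit4, an mTORC1 inhibitor, rose by 0.47, from 485 to 821 CPM in replicate 1 and from 368 to 687 in replicate 2, but only from 997 to 1158 in replicate 3 and from 1256 to 1274 in replicate 4. Vldlr, a lipoprotein receptor, rose by 1.15, with log2 ratios of 2.51, 1.81, 0.43 and 0.65. Tubb2a was the gene of this list that fell, by 0.27, and it was not called lower with the score on 5000 UMIs, in replicates 3 and 4 alone or outside S and G2/M.

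**Figure D2:**
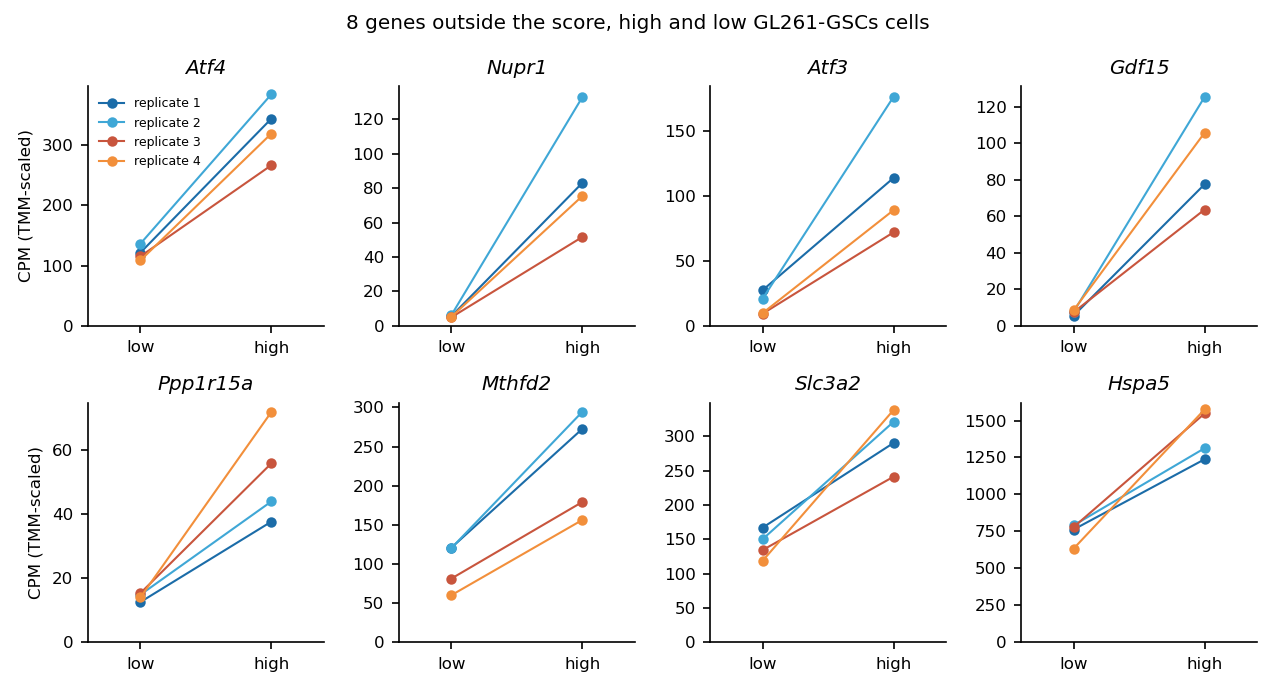
Levels (CPM, TMM-scaled, linear axes from 0) of 8 genes outside the score in low and high GL261-GSCs cells, with a line for each of the 4 replicates. Every line rises, and for each of the 8 genes all high values lie above all low values.

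Enzymes that make amino acids and one-carbon units were higher for 14 of 15 genes, with a list median of 0.73 and no fall. Mthfd2, a mitochondrial folate enzyme, stood at 273, 294, 179 and 156 CPM in high and 121, 120.5, 81.5 and 60.3 CPM in low cells, a 2.35-fold rise (adjusted p = 1.14e-11, edgeR). Its level was lower in replicates 3 and 4 in both kinds of cell, but the log2 ratio was alike, at 1.17, 1.29, 1.14 and 1.37. Pck2, the mitochondrial phosphoenolpyruvate carboxykinase, rose by 1.72 and Aldh1l2, a mitochondrial folate enzyme, by 1.70. Cth, which makes cysteine from cystathionine, rose by 1.83 from low levels of 2.05, 9.75, 2.68 and 1.78 CPM. The serine synthesis genes Psph, Psat1 and Phgdh rose by 0.73, 0.39 and 0.30. The exception was Cbs, the enzyme before Cth in transsulfuration, at 0.09 (adjusted p = 0.61, edgeR).

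Of 13 tested amino acid transporter genes, 10 rose and none fell, with a median of 0.65. Slc3a2, the heavy chain shared by several exchangers, stood at 290, 321, 241 and 338 CPM in high and 167, 150, 134 and 119 CPM in low cells. Its light chain partner Slc7a5, which imports leucine and other large amino acids, rose by 0.98, and the glycine transporter gene Slc6a9 by 1.44. Slc7a11, the cystine importer of the same heavy chain, did not behave alike in all libraries. It stood at 31.3, 21.6, 5.55 and 3.85 CPM in high and 7.54, 5.90, 6.001 and 5.13 CPM in low cells, so that the rise was in replicates 1 and 2 alone. The fitted log2 fold change was 1.31 over all 4 libraries (adjusted p = 0.00187, edgeR), -0.18 in replicates 3 and 4, and the call was lost without replicate 1 (adjusted p = 0.073, edgeR) and under DESeq2 (adjusted p = 0.434).

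Genes that charge transfer RNAs were described in a pair of lists. Of 12 cytosolic synthetase genes often listed as ATF4 targets and Xpot, which exports transfer RNA from the nucleus, 13 of 13 rose, with a median of 0.66. Cars, for cysteine, stood at 59.4, 59.8, 42.4 and 56.2 CPM against 25.6, 25.3, 23.8 and 22.8, and rose by 1.13 (adjusted p = 7.31e-09, edgeR). Aars, Sars and Nars rose by 0.91, 0.83 and 0.75. Of the 8 cytosolic synthetase genes not usually so listed, Rars rose by 0.33 and Kars fell by 0.19, and Dars, Farsa, Farsb, Hars, Qars and Vars lay between -0.12 and 0.04 and were not called. The median of that list was -0.05. The fall of Kars was not called without replicate 2, 3 or 4, with DESeq2, under library size scaling, with low cells matched for depth (-0.06) or with the score on 5000 UMIs (-0.06).

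**Figure D3:**
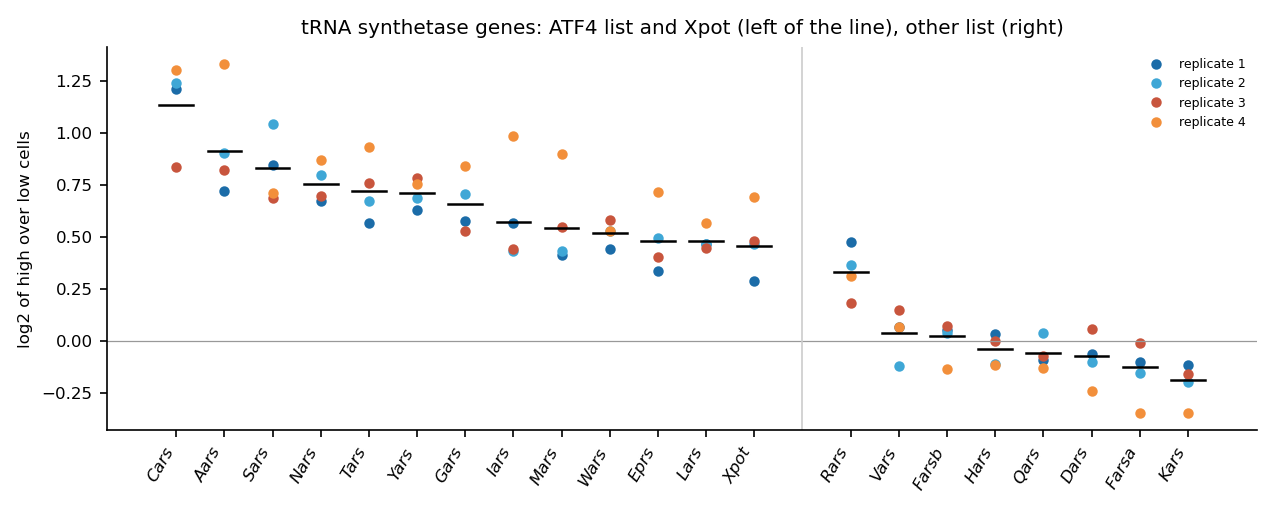
Log2 ratio of high to low GL261-GSCs cells for 21 genes of transfer RNA charging, with a point for each of the 4 replicates and a bar for the fitted log2 fold change. The 13 genes left of the line lie above 0 in every replicate, with fitted values up to 1.13 for Cars, and the 8 on the right lie between -0.19 and 0.33.

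ATF4 with C/EBP partners binds the composite element TGATGNAA, in which N is any base, and promoter windows from 250 bases before to 50 after each gene's start (RefSeq, GRCm38.p6) were searched for these letters on both strands. Of all 32851 windows, 3.97% held a match. Among tested genes with a window it was 254 of 9564 (2.66%), among those called higher 57 of 735 (7.76%), among those called lower 12 of 795 (1.51%) and among those at least 2-fold higher 19 of 85 (22.4%). By list, a match was found in 3 of 6 score genes (Chac1, Trib3 and Asns), in 5 of the 8 ATF4-listed synthetase genes with a window, in 3 of 8 genes of the ATF4 factor list, in 3 of 13 amino acid enzyme genes, and in 0 of 5 other synthetases, 0 of 16 ER genes and 0 of 16 mitotic genes. It was also found in 1 of 7 NRF2 targets, 1 of 9 sterol genes, 1 of 12 immediate early genes and 1 of 18 S phase genes. The following stretches are shown because they place the same letters in genes of different roles that were higher in high cells, with the match in capitals and 30 bases on each side, cut where the transcript begins, 5′ to 3′ on the strand of the gene. TTGCATCA is the same element read from the other strand.
Asns, chr6:7693210-7693262, minus strand: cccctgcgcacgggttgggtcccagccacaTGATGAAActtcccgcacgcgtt
Chac1, chr2:119351019-119351086, plus strand: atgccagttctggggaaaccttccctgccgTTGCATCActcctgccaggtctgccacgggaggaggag
Atf3, chr1:191183406-191183473, minus strand: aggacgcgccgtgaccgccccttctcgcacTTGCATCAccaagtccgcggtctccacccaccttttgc
Nupr1, chr7:126625543-126625610, minus strand: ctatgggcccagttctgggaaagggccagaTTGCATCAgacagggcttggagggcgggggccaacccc
Jdp2, chr12:85599353-85599415, plus strand: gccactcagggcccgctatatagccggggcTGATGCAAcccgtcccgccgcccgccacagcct
Herpud1, chr8:94386287-94386354, plus strand: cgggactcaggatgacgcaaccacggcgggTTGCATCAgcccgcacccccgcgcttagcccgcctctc
Aars, chr8:111033700-111033767, plus strand: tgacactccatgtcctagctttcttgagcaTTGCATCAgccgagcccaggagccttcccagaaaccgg
Slc7a11, chr3:50443623-50443690, minus strand: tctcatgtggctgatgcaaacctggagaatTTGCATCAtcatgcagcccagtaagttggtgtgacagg
The last window holds a second match on the other strand. Slc7a11 shares the element with genes that rose in all 4 libraries, while its own rise was confined to replicates 1 and 2. A match is a description of these letters and not a measured binding site.

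ER chaperone and degradation genes, the targets of ATF6 and XBP1, were higher in high cells, 17 of 18, with a median of 0.40. Hspa5 (BiP, the main ER chaperone; chromosome 2, 34771970 to 34777547) stood at 1238, 1313, 1548 and 1575 CPM in high and 763, 791, 779 and 634 CPM in low cells, and rose by 0.93 (adjusted p = 1.83e-07, edgeR). Xbp1, the factor that IRE1 activates by splicing, stood at 77.5, 95.7, 103 and 110 CPM against 40.6, 51.2, 53.8 and 68.1. Dnajb9 rose by 1.02, Sdf2l1 by 0.67 and Syvn1, the ubiquitin ligase of ER degradation, by 0.58, while Dnajb11 was not called at 0.15. Depth moved with this list. Cells without a score UMI numbered 595, 767, 1196 and 782 in replicates 1 to 4. The shallowest of them, 404, 537, 612 and 282 cells with a median of 8911, 8813, 6957 and 6056 UMIs, had ER list levels 0.38, 0.09, 0.25 and 0.26 above their library on the log2 scale. In replicate 4 the next 282 of these cells, with the same score of 0 and a median of 8493 UMIs, stood at -0.24. The shallowest cells named above stood at 0.22, -0.02, 0.20 and 0.19 for the transporter list and at 0.26, 0.15, 0.34 and 0.47 for the sterol list. With low cells matched for depth, 10 of 12 transporter genes rose, with a median of 0.60. When each high cell was compared with the low cell nearest in total UMIs, 16 of 18 ER genes rose with a median of 0.41. When cells were scored on 5000 UMIs each, 13 of 18 rose with a median of 0.27. The high cells of that choice were deeper than its low cells in 3 of 4 libraries.

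Other stress lists were mixed. Of 9 mitochondrial chaperone and protease genes, Hspa9 rose by 0.44 and Lonp1 by 0.26, and the 6 tested heat shock genes lay between -0.17 and 0.13 and were not called. Of 9 NRF2 targets 4 rose, and 2 of 9 without replicate 1 or with DESeq2. One is Slc7a11, and Hmox1, which degrades heme, rose 5.03-fold, with 76.0, 212, 32.5 and 32.7 CPM against 20.7, 23.7, 9.10 and 10.5, a rise that stood out in replicate 2. Srxn1 and Nqo1 rose by 0.44 and 0.54. Of 9 p53 targets, the cell cycle inhibitor Cdkn1a rose by 0.82, Trp53inp1 by 0.80 and Mdm2 by 0.27. Of 12 hypoxia and glycolysis genes the glucose transporter gene Slc2a1 rose by 0.64 and Vegfa, an angiogenic factor that ATF4 also raises, by 0.44, and of 16 sterol genes 5 rose, by 0.18 to 0.23. The sterol count was 2 without replicate 1, 1 without replicate 3, 3 with low cells matched for depth and 1 with the score on 5000 UMIs. Of 14 immediate early genes 11 rose, with a median of 0.50, among them Klf4 by 2.13, Junb by 1.02 and Egr1 by 0.81. Rsad2, an interferon-induced antiviral enzyme, was one of the largest rises, at 123.5, 69.8, 49.98 and 35.4 CPM against 34.0, 19.0, 18.5 and 21.5, and Arhgef2, a microtubule-bound activator of RhoA, rose by 1.53 with 4 close log2 ratios from 1.35 to 1.63.

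Genes of G2 and mitosis were lower in high cells, 20 of 20, with a median of -0.51. Ube2c, the ubiquitin-conjugating enzyme of the anaphase-promoting complex, stood at 300.5, 384, 372 and 354 CPM in high and 646, 703, 722 and 535 CPM in low cells, and fell by 0.89 (adjusted p = 3.51e-08, edgeR). The fall was smaller in replicate 4: the list's median log2 ratio was -0.68, -0.53, -0.45 and -0.24 in replicates 1 to 4. Mki67, a marker of cycling cells, fell by 0.33, with ratios of -0.64, -0.41, -0.25 and -0.02. Spc25 of the kinetochore fell by 0.83, the spindle protein gene Nusap1 by 0.72 and the mitotic kinase gene Plk1 by 0.66. In the S phase list 2 of 20 fell, Cdca7 by 0.33 and Tyms by 0.21, and neither was called with low cells matched for depth or with the score on 5000 UMIs. Cells with at least 3 S phase UMIs, at 5000 UMIs per cell, averaged 79.6% of high and 84.0% of low cells. This difference of -4.43 percentage points was negative in 4 of 4 libraries (exact sign-flip permutation p = 0.125, 0.15 adjusted over 6 measures). It was negative in 3 of 4 with matched depth and in 2 of 4 with the score on 5000 UMIs. The share of cells with at least 3 UMIs of the G2 and mitosis list, at 5000 UMIs per cell, was 79.4%, 79.7%, 76.9% and 62.3% in high and 87.8%, 90.7%, 79.6% and 63.0% in low cells. It was lower in 4 of 4 libraries, where the share fell by 5.72 percentage points on average (exact sign-flip permutation p = 0.125, 0.15 adjusted over 6 measures, the smallest raw p possible being 0.125). Most high cells of each library thus passed this mark. With the score on 5000 UMIs the list's median was -0.21, with 16 of 20 lower, and the share of cells differed by -7.07, -6.47, 1.07 and -0.15 percentage points in replicates 1 to 4, so that it was not lower in replicate 3.

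A separate comparison used the few cells that held fewer than 3 UMIs of each cell cycle list. High and low cells were chosen there anew, giving 8, 15, 51 and 63 high cells. The medians were 1.68 for the ATF4 factor list, 1.26 for the 13 ATF4-listed transfer RNA genes, all called, and 0.77 for the ER list, 8 of 18 called. Only 8 of the 10 factor genes passed the filter on low counts there. Of all 7290 genes tested there, 194 were called (2.66%), 155 of them higher (2.13%) and 39 lower (0.535%). Medians were lower for the mitochondrial list, at 0.12 with 1 of 9 higher, and the heat shock list, at 0.16 with 1 of 6 higher. Of 8 p53 targets 2 rose and 1 fell, with a median of -0.01.

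Of 17 stem and oligodendrocyte lineage genes tested, 7 fell, Nes rose by 0.25 and 9 were not called, with a median of -0.18. By library the list's median log2 ratio was -0.02, -0.11, -0.12 and -0.27 in replicates 1 to 4, so that it barely moved in replicate 1. Olig2, a transcription factor of oligodendrocyte precursors, stood at 368, 347, 733 and 547 CPM in high and 427, 440, 846 and 748 CPM in low cells. The ranges overlapped, but each library fell, by 0.22, 0.34, 0.21 and 0.45 on the log2 scale (fitted -0.30, adjusted p = 0.00120, edgeR). Sox10 fell by 0.28, Myrf by 0.40, Pdgfra by 0.21, Bcas1 by 0.22 and Olig1 by 0.24. Sox2, a stem cell factor, fell by 0.23 (adjusted p = 0.00629, edgeR), but was not called with low cells matched for depth (-0.15, adjusted p = 0.109), with the score on 5000 UMIs (-0.11, adjusted p = 0.282), or without replicate 3 (-0.21, adjusted p = 0.068). Under library size scaling 4 genes of this list fell, and without replicate 3 it was 3. In cells outside S and G2/M 4 of 17 fell and 0 rose, with a median of -0.60, where 0.535% of all genes tested were lower.

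Library measures outside the score differed slightly. Besides their lower depth, 11031 ± 2845 against 12214 ± 2600 UMIs (SD, n = 4), high cells had a lower ribosomal protein share, 16.9% ± 0.962 against 18.02% ± 1.77 (SD, n = 4), lower in 4 of 4 libraries. At 5000 UMIs they had 32 more genes per cell on average, from 2.5 to 63.5. The median mitochondrial share was 1.15% ± 0.0893 in high and 1.11% ± 0.0662 in low cells (SD, n = 4), higher in 3 of 4 libraries. The exact sign-flip permutation p was 0.125 for the first 3 measures and 0.25 for the last, 0.15 and 0.25 adjusted over 6 measures. With low cells matched for depth, the ribosomal share was lower in 3 of 4 libraries and the gene number higher in 2 of 4.

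The lists were also followed along the range of the score, with no test between them. Cells of each library were ranked by score into 10 equal groups. Cells without a score UMI tie at 0 and were ordered by total UMIs, so that the order of the lowest groups follows depth in part. In replicate 3 the lowest pair of groups, and in replicate 4 the lowest 3, had a median score of 0. The summed level of the ATF4 factor list, as the log2 ratio to the whole library, was 0.11, 0.11, -0.07 and 0.08 in the group next to the top in replicates 1 to 4 and 0.93, 1.11, 0.86 and 1.09 in the top group. Its lowest values over the 10 groups were -0.27, -0.33, -0.17 and -0.31, so the step into the top group was the largest part of its range in each replicate. The score that ranked the cells stepped up there too, in replicate 1 from 331 CPM next to the top to 674 CPM in the top group. The ATF4-listed transfer RNA genes stood at 0.02, -0.16, -0.05 and 0.02 in the lowest group and at their lowest, -0.22, -0.17, -0.27 and -0.29, in one of the groups above it. They reached 0.15, 0.11, 0.15 and 0.14 next to the top and 0.45, 0.56, 0.52 and 0.75 in the top group. For the other synthetases the last pair of groups stood at 0.07, -0.03, 0.07 and 0.07, then 0.07, 0.03, 0.12 and 0.04. The ER list went from 0.21, 0.11, 0.14 and 0.16 to 0.24, 0.35, 0.45 and 0.52, so that in replicate 1 the top group barely differed from the one under it.

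**Figure D4:**
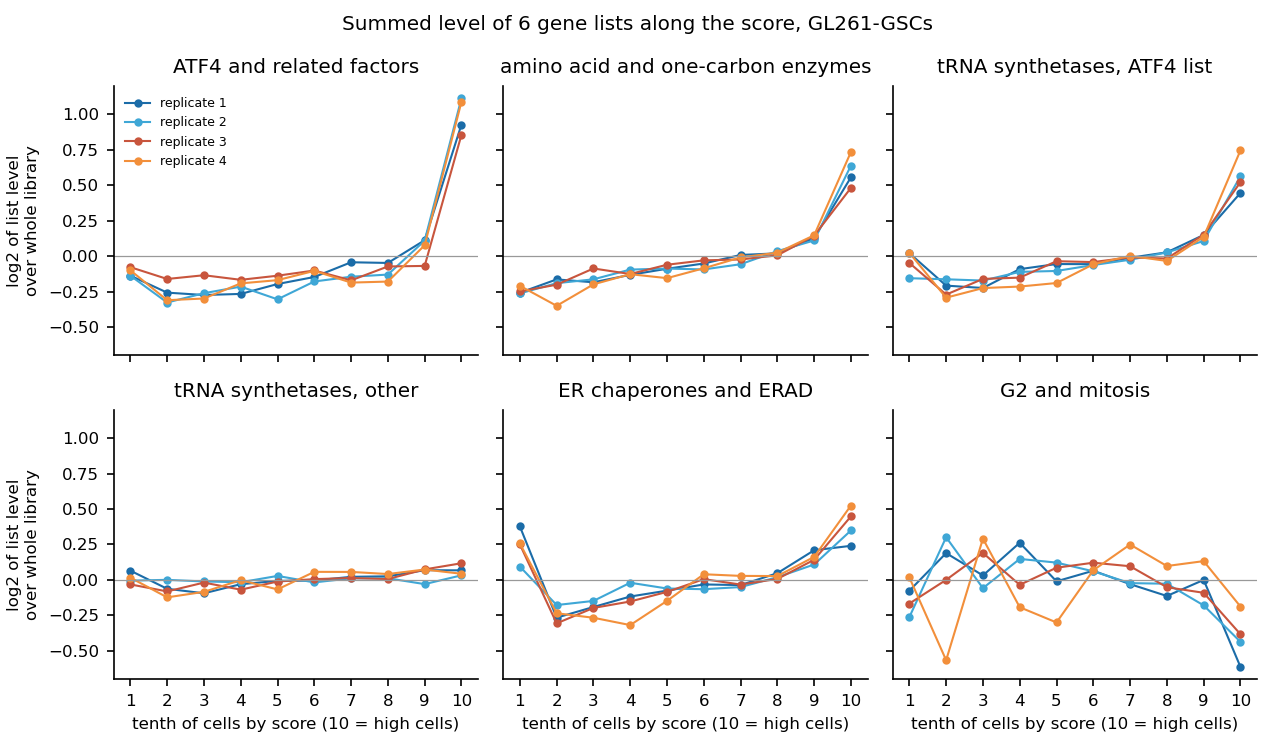
Summed level of 6 gene lists (log2 ratio to the whole library) in 10 equal groups of GL261-GSCs cells ranked by score (cells without a score UMI by depth), with a line for each of the 4 replicates. The ATF4 factor list lies at 0.86 to 1.11 in the top group and at -0.07 to 0.11 in the one under it, while the other synthetases lie between 0.03 and 0.12 in the top group.

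High cells differed among themselves in how many of the 6 score genes they showed. Levels of the ATF4 factor list were 782, 800, 537 and 704 CPM in high cells of replicates 1 to 4 with 1 or 2 score genes seen, 862, 948, 706 and 747 with 3, and 1171, 1706, 1377 and 1586 with 4 to 6, against 462, 526, 436 and 451 in low cells. The order was the same in all 4 libraries. The amino acid enzyme list was at 1621, 1947, 1209 and 1353 in cells with 1 or 2 genes and at 2002, 2396, 1814 and 1847 in those with 4 to 6. Cells with 3 stood at 1692, 2016, 1315 and 1313, so that in replicate 4 they lay under those with 1 or 2. The ER list showed no such order, at 9372, 8907, 8293 and 7927 in cells with 1 or 2 genes and 6569, 7370, 9033 and 8320 in those with 4 to 6. Depth moved with the number of genes seen: median UMIs were 9004, 8204, 8849 and 7170 in cells with 1 or 2, and 16934, 12747, 13615 and 9016 in those with 4 to 6. The score moved with it too, at 542, 673, 494 and 582 CPM in cells with 1 or 2 and 760, 1046, 985 and 1200 CPM in those with 4 to 6. The parts of depth and of the score in these levels were not tested.

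The same rule applied to the 2 GL261 libraries gave 436 and 451 high cells, with a median of 17 and 14 score UMIs. At least 4 of the 6 genes were seen in 80.7% and 75.6% of them, so the choice rested on more UMIs there. In GL261 alone 2426 of 13837 genes were called (17.5%), with 8.59% higher and 8.95% lower. A test of the difference between the 2 groups in their high-low difference called 322 of 14519 genes (2.22%), of which 216 were higher (1.49%) and 106 lower (0.73%) in GL261-GSCs (edgeR quasi-likelihood interaction, Benjamini-Hochberg). That count was 37 without GL261 replicate 1, 69 without GL261 replicate 2 and 182 without GL261-GSCs replicate 3. It was 110 with the score on 5000 UMIs and 140 with low cells matched for depth.

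The ER list's median was 0.40 on the log2 scale in GL261-GSCs and -8.05e-05 in GL261. All 18 differences were positive, and 10 of 18 were called higher in GL261-GSCs, among them Dnajc3, Manf, Creld2, Xbp1, Pdia4 and Hsp90b1. With both groups scaled together, Hsp90b1 stood at 1355 and 1446 CPM in high and 1547 and 1617 CPM in low GL261 cells. In GL261-GSCs it stood at 1702, 1807, 2069 and 1880 CPM in high and 1547, 1464, 1568 and 1339 CPM in low cells. With GL261 fitted alone its log2 fold change was -0.06 and was not called (adjusted p = 0.166, edgeR), so that a fall in GL261 was not shown. Hspa5 was higher in the high cells of every library of both groups, with values of 1059 and 957 CPM in high and 723 and 701 CPM in low GL261 cells, and its difference of 0.33 was not called (adjusted p = 0.169, edgeR). Leaving out either GL261 library left 1 of 18 called, with all 18 still positive. It was 8 of 18 with low cells matched for depth and 5 of 18 with the score on 5000 UMIs, where 17 were positive. Depth differed here too: the median UMI count of high minus low cells was 693 and -176 in GL261 and between -720 and -1441 in GL261-GSCs, and its part in the difference was not tested. Cell cycle measures differed between the groups as well. The share of cells with at least 3 UMIs of the G2 and mitosis list differed between high and low cells by -22.3 and -22.1 percentage points in GL261 and by -8.41, -11.0, -2.72 and -0.72 in GL261-GSCs. Of 20 S phase genes 18 differences were positive and 7 were called higher in GL261-GSCs, with a median of 0.25. That count was 0 with DESeq2, without GL261 replicate 1 or without GL261-GSCs replicate 1, 2 without GL261 replicate 2, 1 without GL261-GSCs replicate 3 and 1 with the score on 5000 UMIs. Whether the cell cycle bears on the ER difference was not tested. Eif2ak3 was 0.55 and Ppp1r15a 0.60 higher in GL261-GSCs in the same test, and both calls were lost without either GL261 library.

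The amino acid enzyme list went the other way in part: Pycr1, Psph, Cth, Shmt2 and Gpt2 had smaller rises in GL261-GSCs, by 0.75, 0.56, 0.78, 0.37 and 0.54, and none was called without GL261 replicate 1. Among the ATF4-listed transfer RNA genes 1 of 13 differed, Wars, by -0.47, a call lost under DESeq2 and without either GL261 library. Their median rise was 0.66 in GL261-GSCs and 0.83 in GL261. The medians of the other ATF4 lists were also smaller in GL261-GSCs, unlike that of the ER list. They were 0.73 against 1.09 for amino acid enzymes, 0.89 against 1.10 for the factors, 0.65 against 0.79 for transporters and 0.91 against 1.08 for other outputs. The part of the less sure choice of GL261-GSCs cells in these smaller rises was not tested. Of the factors, Nupr1 had the larger rise in GL261-GSCs, by 1.31 (adjusted p = 1.89e-04, edgeR), and Atf4 by 0.34, the latter lost in 6 of 10 alternatives, among them DESeq2 and leaving out either GL261 library, while Cebpb rose less, by 0.95. Of the other outputs, Ddit4 rose less by 1.17. Atf3 did not differ beyond error, at -0.15 (adjusted p = 0.826, edgeR). The 5 smallest p-values of this test were those of Tes, a focal adhesion protein, by 1.31, Acot2, a mitochondrial thioesterase, by -1.54, Chl1, a neural adhesion molecule, by 0.91, Ifit3, an interferon-induced gene, by 2.69, and Cebpb. Ifit3 was barely seen in GL261-GSCs, at 5.85, 1.54, 1.78 and 0 CPM in high and 1.72, 0.38, 0.22 and 0.21 CPM in low cells, so that replicate 4 went the other way. In GL261 high cells Tes stood at 111 and 112.5 CPM against 129 and 121 in low cells, and in GL261-GSCs at 35.1, 19.4, 13.7 and 16.6 against 18.9, 7.82, 5.68 and 4.57, all scaled together.

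**Figure D5:**
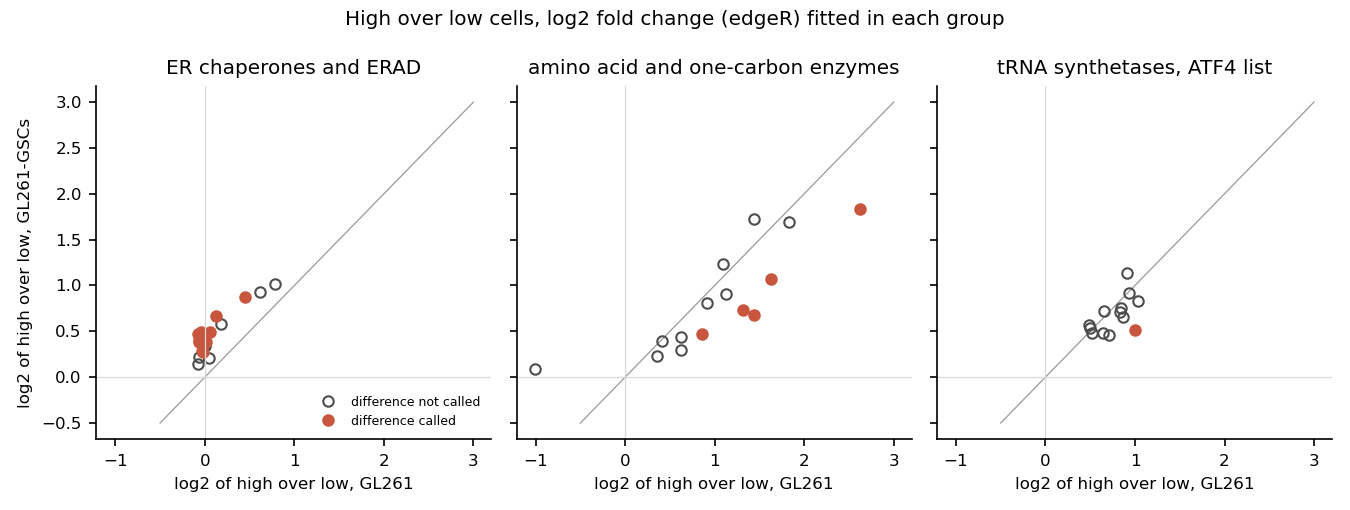
Log2 fold change of high over low cells in GL261 (x axis, 2 libraries) and GL261-GSCs (y axis, 4 libraries) for 3 gene lists, 1 point per gene, filled where the difference between the groups was called, with the line of equal change. The ER genes lie mostly near 0 on the x axis and above 0 on the y axis, and the 5 filled amino acid enzymes lie under the line.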

How the data were processed

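Single-cell RNA was measured in 4 GL261-GSCs and 2 GL261 libraries. The authors deposited UMI counts per gene and barcode, unfiltered, made with Cell Ranger 4 per the file headers, on mm10 per the submitters' processing notes. Columns of other samples numbered 0. Of 54446 gene identifiers, 53229 matched GENCODE M21 with their version and 54409 without, and 94 repeated a symbol, the second Ddit3 entry having no UMI.

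UMIs of high and of low cells were summed per library, so that each library gave 2 samples, filtered with filterByExpr, scaled by TMM and tested with edgeR 4.0.16 (R 4.3.3) by its quasi-likelihood test, with the library as a block because both samples come from 1 library. The difference between the groups was an interaction term in 1 fit over all 6 libraries. Alternatives used DESeq2 1.42.0 and limma 3.58.1 (voom), other scalings, cell choices and depths, and each library left out. On simulated counts for 12983 genes of the comparison of high with low cells, with 200 changed by a log2 of 1, edgeR recovered 190 with 7 false calls. All genes were drawn at 1 shared dispersion, 0.00276, and genes with low counts were not among those changed. Changes smaller than a log2 of 1 and spread that differs between genes were not simulated, so the figures do not cover them. Doublets were not removed and no caller was used; an alternative left out the 5% of cells with most UMIs. Single values were compared by exact permutation in Python 3.11.15 with scipy 1.17.1.

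The members and gene lists were chosen with earlier results of these data known. Named were the 10 largest rises and falls with an average log2 CPM of at least 5, an adjusted p under 0.05 and 1 direction in all 4 libraries (no predicted or mitochondrial genes), the 3 smallest p of each list, the score genes, 11 genes whatever their values, and the 5 smallest p of the interaction. Other list members were named after their values were seen.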

Additional observations from a re-analysis of the deposited data

Results flagged for a closer look

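In 112 sets of 4 replicate values, 1 replicate was looked for that lay far from the other 3, which chance gives in about 1 in 20 sets. There were 6 such sets, which is about that rate. The log2 ratio of high to low cells was 3.16 for Hmox1 in replicate 2 against 1.64 to 1.87 in the others, and 2.28 for Aldh1l2 in replicate 4 against 1.53 to 1.59. For Xbp1 it was 0.69 in replicate 4 against 0.90 to 0.94, for the cyclin gene Ccnf -0.078 in replicate 4 against -1.02 to -0.87, and for Cdca7 -0.46 in replicate 2 against -0.29 to -0.26. The median of the immediate early genes was 0.70 in replicate 2 against 0.32 to 0.36.

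For 17 of the genes picked by the naming rule the difference between high and low cells differed between GL261-GSCs and GL261 in the interaction test (edgeR, adjusted over all genes). Other list members called in this test, among them Ddit4, Dnajc3 and Pycr1, are described above and are not in this count. In GL261-GSCs the log2 difference was greater by 0.71 for Gdf15 (adjusted p = 0.0203), 0.50 for Herpud1 (0.0303), 0.54 for Arhgef2 (0.00198), 0.34 for Atf4 (0.0463), 0.60 for Ppp1r15a (0.0238) and 0.55 for Eif2ak3 (0.0171). It was also greater by 1.31 for Nupr1 (adjusted p = 1.89e-04), 0.45 for Xbp1 (0.00758), 1.59 for Klf4 (3.79e-04), 0.55 for the replication licensing gene Cdc6 (0.0163), 1.31 for Tes (1.32e-05), 0.91 for Chl1 (7.27e-05) and 2.69 for Ifit3 (7.27e-05). The interaction was -0.68 for Lonp1 (adjusted p = 1.35e-04), -0.84 for Vegfa (0.00375), -1.54 for Acot2 (4.34e-05) and -0.95 for Cebpb (7.27e-05). Of the 10 alternatives, all kept the calls of Arhgef2, Nupr1, Tes, Chl1, Lonp1 and Cebpb. Acot2 and Ifit3 had no DESeq2 value, so they were not called by that tool, and kept their calls in the other 9. Ifit3 had 0 CPM in high cells of GL261-GSCs replicate 4 and 0.21 in low cells, against the direction of the other 3 libraries. The call of Gdf15 was kept in 5, Herpud1 in 6, Atf4 in 4, Ppp1r15a in 7, Eif2ak3 in 5, Cdc6 in 5, Vegfa in 8, and Xbp1 and Klf4 in 9. DESeq2 lost Gdf15, Herpud1, Atf4, Eif2ak3, Cdc6 and Klf4. Leaving out GL261 replicate 1 lost Herpud1, Atf4, Ppp1r15a, Eif2ak3, Cdc6 and Vegfa, and leaving out GL261 replicate 2 lost Gdf15, Herpud1, Atf4, Ppp1r15a, Eif2ak3, Cdc6 and Xbp1.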

How the results depend on the processing

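Genes called in high against low cells numbered 1959, and 1255 with DESeq2, 684 with the score on 5000 UMIs, 1119 with low cells matched for depth, 1275 with a minimum of 10000 UMIs and 194 in cells outside S and G2/M. Without the replicate block, which pairs the high and low sample of each library, 10 were called. Leaving out 1 library gave 1111 (without replicate 3) to 1592. For the difference between the groups 322 genes were called, 138 with DESeq2, 110 with the score on 5000 UMIs, 140 with matched depth and 37 (without GL261 replicate 1) to 369 with 1 library left out, the lone GL261 library then being assumed to vary like the others.

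The list medians moved with the share of cells called high and with which cells could be chosen. For the top 5%, top 20% and cells outside S and G2/M they were 1.24, 0.56 and 1.68 for ATF4 factors, 0.97, 0.51 and 1.28 for amino acid enzymes, 0.85, 0.41 and 0.98 for transporters, 0.86, 0.45 and 1.26 for the ATF4-listed transfer RNA genes, and 1.28, 0.63 and 1.45 for other ATF4 outputs. Outside S and G2/M the filter on low counts left 8 factors, 13 enzymes, 10 transporters and 11 outputs. The main fit held 10, 15, 13 and 15, so these medians are not over the same genes. The ER median was 0.54 for the top 5%, 0.77 outside S and G2/M and 0.51 in replicates 3 and 4 alone. The G2 and mitosis median was -0.29 for the top 20% and -0.17 outside S and G2/M, from 4 genes. Cells outside S and G2/M were picked by low counts of the cell cycle lists. Values of those lists there, also that of Tyms below, thus depend on the filter itself. With the score on 5000 UMIs the medians were 0.45 for transporters, 0.27 for ER and -0.21 for G2 and mitosis, and with the score genes weighted equally 0.53 for the transfer RNA genes. Outside S and G2/M the sign turned for Kars (0.042), Lss (-0.035) and Tyms (0.35), and in replicates 3 and 4 alone for Slc7a11 (-0.18). With the score on 5000 UMIs the difference in median UMIs turned to 1370 and that in mitochondrial share to -0.0159 percentage points. Cells with equal scores were ordered there by total UMIs, which places deeper cells among the high and shallower ones among the low. That choice thus does not equalize depth, and the part of this order in its other values was not tested. Of 67 named genes called, 46 were called under every alternative other than the fit without the block. Depth limits the choice of cells, since with 1 score UMI more or less many would change sides.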
